A study of Mus musculus with 6 samples.

Results

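Malat1, Neat1 and 5 host genes of small nucleolar RNAs (Gas5, Snhg1, Snhg3, Snhg8 and Snhg12) are non-imprinted genes whose transcripts are not translated into a known protein. They were measured on whole-genome Affymetrix mouse arrays by 21 probe sets, which are groups of short probes designed for 1 transcript or a few. Every probe set whose single gene symbol was one of these 7 names was taken, out of 45037 probe sets and 18193 named genes in all. Malat1 had 7 probe sets, Snhg1 had 5, Gas5 had 4, Neat1 had 2, and Snhg3, Snhg8 and Snhg12 had 1 each. A further 2 probe sets that carry a member's symbol together with that of a small nucleolar RNA were left out. The genes were selected on measured values of these same arrays, because Malat1 had moved in clone A1 against the other clones. That pattern is therefore given below as a description, with no test.

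The arrays held total RNA of undifferentiated mouse embryonic stem (ES) cells of the EB3 (EBRTcH3) line. Each of 3 clones, A1, B3 and C6, carried the human GTF2I coding sequence, with a 3xFLAG tag and without its untranslated regions, at ROSA26 behind a tetracycline-response element, a tet-off arrangement in which tetracycline silences it. Induced cells were grown for 24 h without tetracycline, and uninduced cells (0 h) of the same clones were grown with it. Each clone was hybridized once in each state, giving 3 induced and 3 uninduced arrays. Both groups carried the transgene and grew with leukemia inhibitory factor. The sample titles, which were followed, name GTF2I as the transgene, although a genotype label names GTF2IRD2. The transgene and the removal of tetracycline came together, so their parts in a difference cannot be told apart. A clone is a line grown from a single cell, and nothing in the labels says that the arrays of 1 clone came from separate cultures.

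GTF2I encodes TFII-I, a transcription factor named for its binding to initiator elements at transcription start sites. Malat1 and Neat1 are neighbouring genes whose long RNAs stay in the nucleus: Malat1 RNA gathers in nuclear speckles, the bodies rich in splicing factors, and Neat1 RNA is the scaffold of paraspeckles. RNase P cuts the end of the Malat1 transcript, which frees a small tRNA-like RNA called mascRNA and leaves the long RNA without a poly(A) tail. The host genes carry small nucleolar RNAs (snoRNAs), guides for the modification of ribosomal RNA, in their introns. Many of their spliced transcripts begin with a terminal oligopyrimidine tract, a run of C and T in the DNA, and are degraded by nonsense-mediated decay when translated.

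The annotation of the genes follows this division. In RefSeq (assembly GRCm38.p6), Gas5 and Snhg1 each held 8 snoRNA genes, Snhg12 held 4, Snhg3 held 2 and Snhg8 held 1. Malat1 and Neat1 held none, and the 1 gene listed inside Malat1 is mascRNA. Malat1, Neat1 and Snhg1 lie on chromosome 19, Snhg3 and Snhg12 on chromosome 4, Gas5 on chromosome 1 and Snhg8 on chromosome 3.

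The start regions are shown because the members differ there in sequence. Initiator elements, which TFII-I binds, were not searched for. Each line gives 70 bases of RefSeq sequence (GRCm38.p6), with 40 bases before the annotated start and 30 from the start on, in the direction of transcription. Capitals mark a TATA-type run of 6 letters (TATAAA, or its variants TATATA and TTTATA) and, where it has at least 5 letters, the longest run of C or T that comes within 10 bases of the start. Gas5 has 2 windows because RefSeq lists more than 1 start for it.
Malat1 (chr19:5802643-5802712, minus strand): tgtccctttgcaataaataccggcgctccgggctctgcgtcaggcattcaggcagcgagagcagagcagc
Gas5, upstream start (chr1:161034561-161034630, plus strand): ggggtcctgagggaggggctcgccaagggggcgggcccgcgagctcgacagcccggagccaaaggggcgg
Gas5, downstream start (chr1:161035126-161035195, plus strand): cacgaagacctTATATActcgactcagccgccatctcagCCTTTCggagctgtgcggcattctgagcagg
Snhg1 (chr19:8723447-8723516, plus strand): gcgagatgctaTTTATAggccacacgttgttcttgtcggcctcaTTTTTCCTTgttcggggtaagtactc
Snhg3 (chr4:132353657-132353726, minus strand): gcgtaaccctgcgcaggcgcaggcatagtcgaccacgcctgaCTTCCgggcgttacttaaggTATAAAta
Snhg8 (chr3:123508307-123508376, minus strand): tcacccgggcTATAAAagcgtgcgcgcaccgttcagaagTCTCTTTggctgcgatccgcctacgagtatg
Snhg12 (chr4:132308638-132308707, plus strand): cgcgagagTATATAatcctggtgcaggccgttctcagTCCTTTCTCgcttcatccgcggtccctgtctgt

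The downstream Gas5 window, Snhg1, Snhg8 and Snhg12 hold a TATA-type run 29, 29, 30 and 32 bases before the start. Such a run on the transcribed strand, beginning 40 to 21 bases before the start, was found in 3.18% of 32851 mouse windows. The window of Malat1 holds none there, and the only one in the Snhg3 window lies after the start. Runs of C or T were counted only where they came within 10 bases of the start. The longest such run had 9 letters in Snhg1 and in Snhg12 and 7 in Snhg8. It had 6 in the downstream Gas5 window, 5 in Snhg3, 4 in Malat1 and 3 in the upstream Gas5 window. Within 10 bases of the start, 5 of the 7 windows had a run of at least 5, as did 34.4% of all windows. The letters TGACG, the core of a cyclic AMP response element, were found on either strand of the 300-base windows of Malat1, Gas5 (downstream), Snhg8 and Snhg12, and in 20.8% of all windows. A match of letters shows neither binding nor use of a site.

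The values are log2 summaries made by robust multiarray averaging (RMA), so a difference of 1 is a doubling. The 6 arrays were alike as a whole: their correlations lay between 0.991 and 0.996 over all probe sets and their medians between 5.06 and 5.11. ES cell markers were strongly detected, with a mean over 14 genes of 11.68 to 11.93 on induced arrays and 11.79 to 11.89 on uninduced arrays. The 12 fibroblast and feeder markers averaged 5.12 to 5.25 on induced arrays and 5.18 to 5.27 on uninduced arrays, and 2 of them lay below the lower quartile. Fbln1, a matrix protein in that list, averaged 9.20, and Tagln, Thy1 and Acta2 averaged 6.78, 6.69 and 6.22. The clones did not move together: over the 17168 probe sets whose mean reached 6, the difference between induced and uninduced correlated at -0.64 between A1 and B3, at -0.76 between A1 and C6 and at 0.67 between B3 and C6. The arrays carry mouse probe sets, which were not taken as a reading of the human transgene. The transgene's level on the arrays was therefore not used to check the labels of A1. By real-time RT-PCR, the paper measured far more transgene RNA without tetracycline than with it in each of A1, B3 and C6. Induction was thus measured in A1 too, but whether the labels of its arrays are right was not tested. For the members, results that rest on A1 are given with and without it.

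With all 3 clones, limma could tell no long noncoding RNA difference between induced and uninduced arrays from the spread within the groups. The replicates of a group are the 3 clones, so this spread includes the opposite movement of A1. None of the 21 probe sets was called by limma (Benjamini-Hochberg adjusted p under 0.05), as for all probe sets (0%), and the smallest adjusted p over all of them was 1.00. At an unadjusted p under 0.05, 0 of the 21 and 436 of all probe sets passed, where 2252 would be expected by chance. The methods' t-test called 0 after adjustment and passed 867 before it. Of the 21 probe sets, 15 were higher and 6 lower in induced cells, with a median difference of 0.05, against 0.00 over all probe sets. The induced and uninduced values overlapped in all 21, and in all but 4.55% of all probe sets.

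Malat1 had the probe set with the widest range of the 21, and 3 of its probe sets spread widely. On probe set 1418189_s_at, the induced arrays read 4.99 (A1), 7.43 (B3) and 7.15 (C6), against 6.47, 5.19 and 5.45 on the uninduced arrays of the same clones. Induced B3 and C6 were thus the highest, and induced A1 was the lowest of the 6 arrays, below the uninduced arrays of B3 and C6. Induced over uninduced, the ratio was 0.359 (A1), 4.71 (B3) and 3.26 (C6). The mean was 6.53 ± 1.33 in induced and 5.71 ± 0.68 in uninduced cells (SD, n = 3 each), and the difference of 0.82 ± 0.63 (SE) had a 95% interval of -0.63 to 2.27 (limma, adjusted p = 1.00).

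Probe set 1438403_s_at gave the same order. Its induced values were 6.24 (A1), 7.79 (B3) and 7.49 (C6), against uninduced values of 7.11, 6.33 and 6.46. The ratio of induced to uninduced was 0.549 (A1), 2.74 (B3) and 2.03 (C6), and the mean difference was 0.54 ± 0.39 (SE). The last of the 3, 1418188_a_at, read 4.96, 6.77 and 6.43 on the induced arrays of A1, B3 and C6, against 5.62, 4.96 and 5.57 on the uninduced arrays. Here A1 was low in the induced state and level with C6 in the uninduced state. The ratio was 0.636 (A1), 3.50 (B3) and 1.82 (C6), and the mean difference 0.67 ± 0.43 (SE).

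**Figure D1:**
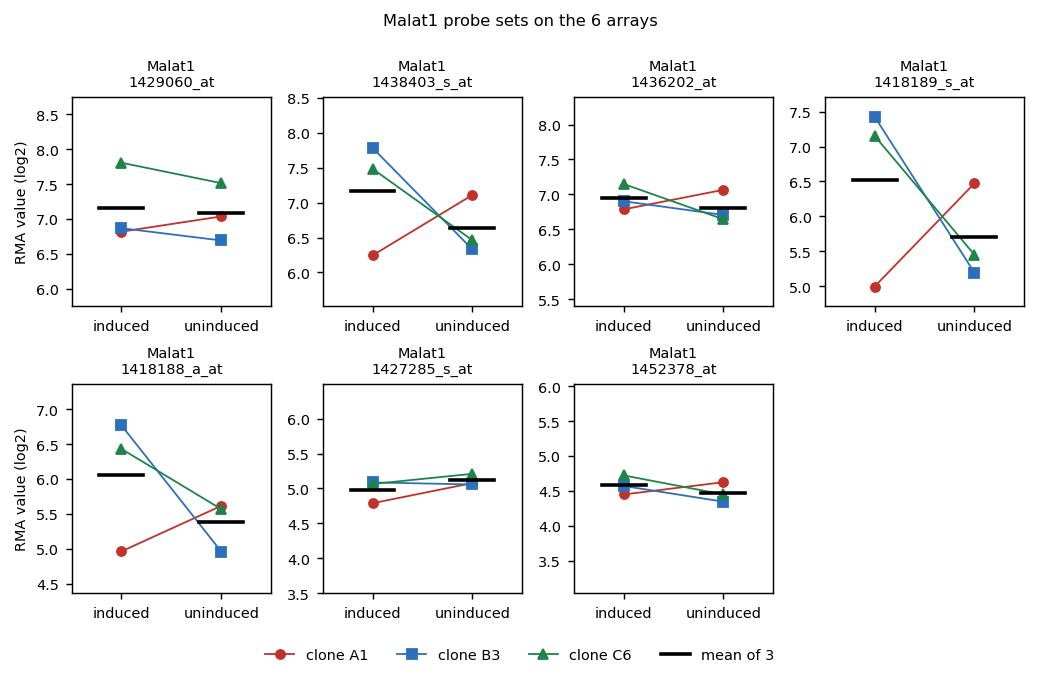
RMA values (log2) of the 7 Malat1 probe sets on the 6 arrays, induced on the left and uninduced on the right of each panel. Lines join the 2 arrays of a clone and black bars are means of 3. Each panel spans the same log2 distance. In 1418189_s_at, 1438403_s_at and 1418188_a_at clone A1 slopes against B3 and C6, while the other 4 panels are much flatter.

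The other 4 Malat1 probe sets moved far less. The brightest, 1429060_at, read 6.82, 6.87 and 7.81 on the induced arrays of A1, B3 and C6, against 7.04, 6.69 and 7.51 on the uninduced arrays. Its values were ordered mainly by clone, with both C6 arrays above all others, and the differences within a clone were -0.22 (A1), 0.18 (B3) and 0.29 (C6). On 1436202_at the differences were -0.28, 0.20 and 0.51, and on the dim 1452378_at they were -0.18, 0.23 and 0.27. These directions matched those of the 3 wide probe sets. Probe set 1427285_s_at was the exception, with -0.29 (A1), 0.03 (B3) and -0.15 (C6). It and 1452378_at were the 2 members whose mean over the 6 arrays lay below the median of every array, in the 49.4th and 40.8th percentiles of all probe sets.

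Across the 6 arrays, which come in pairs from 3 clones, the 3 wide Malat1 probe sets correlated with one another at 0.95 to 1.00. The correlation of the brightest probe set with these 3 was 0.30, 0.36 and 0.44. In the naming of this platform, the ending s_at marks probes that can match transcripts of more than 1 gene and a_at marks probes shared by transcripts of 1 gene, so 2 of the 3 wide probe sets have probes that may not be particular to Malat1. The 7 probe sets disagree on the size of the Malat1 difference.

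A1 moved against both B3 and C6 in 6 of the 7 Malat1 probe sets, in 2 of 5 for Snhg1 and in the 1 for Snhg3, 9 of the 21 in all, and the share over all probe sets was 41.4%. That share rises with brightness: it was 60.8% among genes whose mean reached 6, read by their brightest probe set. Of the 21 members, 18 had a mean of at least 6. B3 moved against both others in 4 of the 21 and C6 in 6. All clones moved the same way in 2 of the 21, against 18.8% of all probe sets. With each clone moving by at least 0.5, A1 stood against both others in 3 of the 21, all of Malat1, and in 0.755% of all probe sets. These are the values by which Malat1 was chosen. Of the 3 Malat1 probe sets, 1418188_a_at came closest to that bound, with a smallest difference of 0.65 (in A1, downward). Among the members that missed it with A1 against both others, Snhg3 came closest. Its smallest difference was 0.29, in C6, well short of 0.5.

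**Figure D2:**
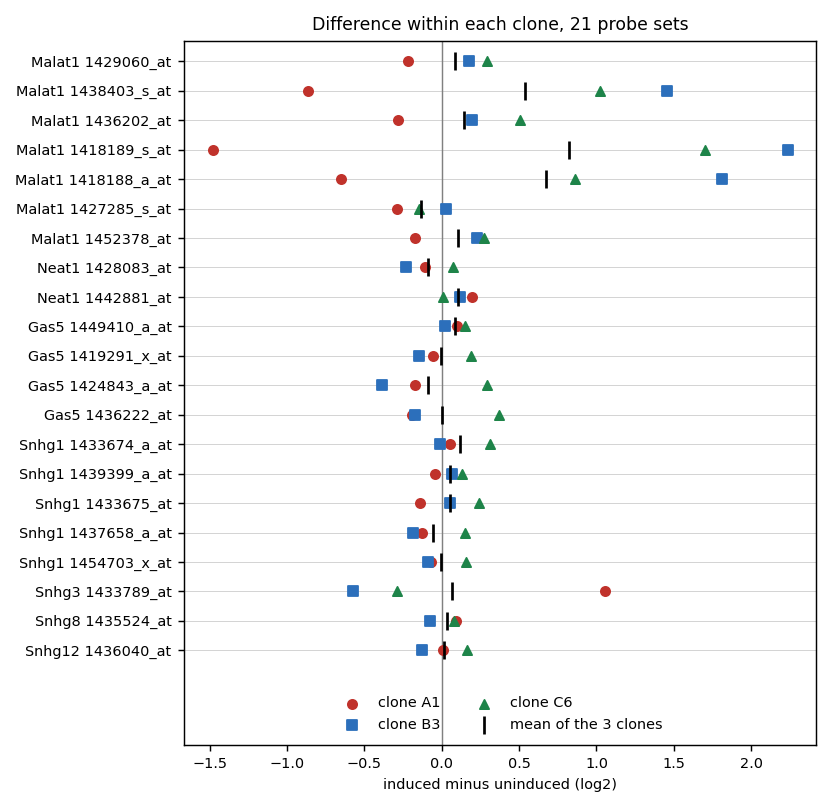
Induced minus uninduced (log2) within each clone for the 21 probe sets, with symbols for clones A1, B3 and C6 and a bar for their mean. Malat1 1418189_s_at spans -1.48 in A1 to 2.24 in B3, Snhg3 spans -0.57 in B3 to 1.06 in A1, and the probe sets of Neat1, Gas5, Snhg1, Snhg8 and Snhg12 lie between -0.38 and 0.37.

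**Figure D3:**
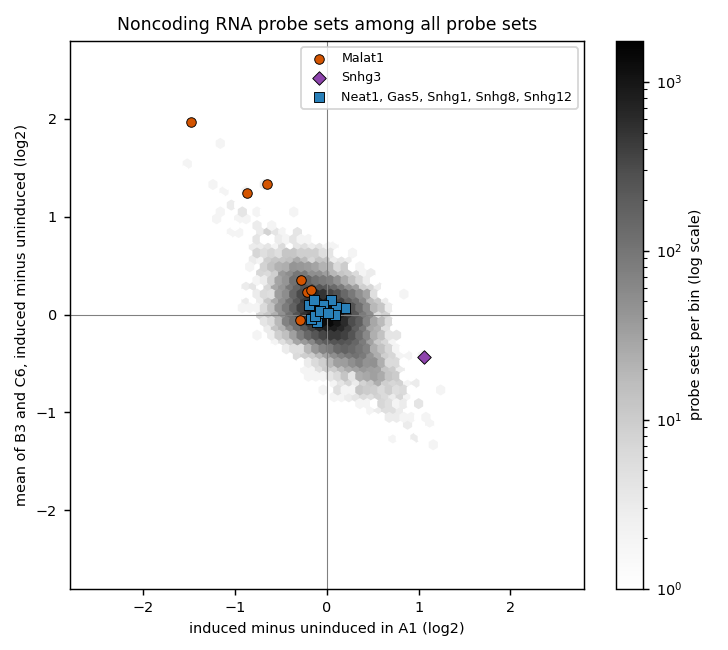
Induced minus uninduced (log2) in A1 on the horizontal axis and the mean of B3 and C6 on the vertical axis, for 45037 probe sets (grey, number per bin on a log scale) with the members drawn over them. The grey cloud slopes downward; 3 Malat1 probe sets lie at its upper left end and Snhg3 at the lower right.

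In a fit of B3 and C6 alone, with the clone as a block, limma called 981 of all probe sets (2.18%), of which 392 (0.87%) were higher in induced cells. The called members were 3, the wide Malat1 probe sets, all higher by 1.97 (1418189_s_at), 1.34 (1418188_a_at) and 1.24 (1438403_s_at). This contrast is part of what chose Malat1, so the calls carry no weight of their own. With B3 or C6 left out in place of A1, the same fit called 0 probe sets.

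Snhg3, the host of a pair of box H/ACA snoRNAs, moved in the opposite sense to Malat1 and was the only host gene with a wide spread. Its probe set 1433789_at read 10.30 (A1), 10.61 (B3) and 10.12 (C6) on induced arrays, against 9.24, 11.18 and 10.41 on uninduced arrays. Uninduced A1 was the lowest and uninduced B3 the highest of the 6, so the uninduced group spanned 1.94 and enclosed all 3 induced values. Induced over uninduced, the ratio was 2.08 (A1), 0.671 (B3) and 0.819 (C6). The mean was 10.34 ± 0.25 in induced and 10.28 ± 0.98 in uninduced cells (SD, n = 3 each), a difference of 0.07 with a 95% interval of -0.92 to 1.05 (limma, adjusted p = 1.00). The range over the 6 arrays exceeded that of 99.7% of all probe sets. Without A1, the difference in the blocked fit was -0.43. Rcc1, the chromatin-bound exchange factor for the Ran GTPase and the gene beside Snhg3, had differences of 0.37 (A1), -0.29 (B3) and -0.63 (C6). Phactr4, on the other side, had -0.10, 0.17 and -0.11.

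Neat1 had an ordinary spread over the 6 arrays. The Neat1 ranges, 0.42 (brighter probe set) and 0.36 (dimmer), exceeded those of 55.2% and 42.1% of all probe sets. Its brighter probe set, 1428083_at, read 8.81, 8.56 and 8.97 on the induced arrays of A1, B3 and C6, against 8.92, 8.78 and 8.90 on the uninduced arrays. C6 was the highest and B3 the lowest of the induced arrays, and the mean difference was -0.09 with a 95% interval of -0.38 to 0.20. The dimmer probe set, 1442881_at, read 6.41, 6.57 and 6.25 on induced arrays, against 6.22, 6.46 and 6.24 on uninduced arrays, and was higher in the induced state of every clone by 0.20, 0.12 and 0.01. Over the 6 arrays the 2 Neat1 probe sets correlated at -0.94: arrays that were high on one were low on the other. Neat1 makes a short and a long transcript from 1 start, and the files do not say which the probe sets read. Unlike the wide Malat1 probe sets, neither Neat1 probe set moved in A1 against both other clones; the difference between the 2 genes was not tested.

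Gas5, which hosts box C/D snoRNAs and is known for accumulating in growth-arrested cells, differed little between the groups. Probe set 1449410_a_at read 11.36, 11.31 and 11.09 on the induced arrays of A1, B3 and C6, against 11.27, 11.30 and 10.94 on the uninduced arrays. Both C6 arrays were the lowest, and induced exceeded uninduced in every clone, by 0.10, 0.02 and 0.15. The mean difference of 0.09 had a 95% interval of -0.22 to 0.40 (limma, adjusted p = 1.00). The other 3 probe sets of Gas5 were all lower in induced A1 and B3 and higher in induced C6. Their differences were -0.06, -0.15 and 0.19 on 1419291_x_at, -0.17, -0.38 and 0.29 on 1424843_a_at, and -0.19, -0.18 and 0.37 on 1436222_at. In these 3 the uninduced C6 array was the lowest of the 6, at 10.46, 8.11 and 7.31. The ending x_at marks probes that can match other transcripts.

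Snhg1 hosts another set of box C/D snoRNAs. Its brightest probe set, 1433674_a_at, read 11.27, 11.12 and 11.23 on the induced arrays of A1, B3 and C6, against 11.22, 11.13 and 10.92 on the uninduced arrays. Uninduced C6 was the lowest here too, and the mean difference was 0.12 with a 95% interval of -0.14 to 0.37. On its other 4 probe sets (1439399_a_at, 1433675_at, 1437658_a_at and 1454703_x_at) C6 was higher in the induced state by 0.13, 0.24, 0.15 and 0.15, and A1 was lower in each, by at most 0.14. No Snhg1 probe set had a mean difference outside -0.06 to 0.12.

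Snhg8 and Snhg12, with 1 probe set each, moved by at most 0.16 in any clone. Snhg8, whose single snoRNA is of the H/ACA class, read 10.55, 10.55 and 10.59 on the induced arrays of A1, B3 and C6, against 10.46, 10.63 and 10.51 on the uninduced arrays. Its range over the 6 arrays, 0.17, was narrower than that of all but 5.98% of the probe sets. Snhg12 read 9.29, 9.41 and 9.34 on induced arrays, against 9.28, 9.54 and 9.18 on uninduced arrays. The mean difference was 0.03 (95% interval -0.18 to 0.24) for Snhg8 and 0.01 (-0.26 to 0.28) for Snhg12, and the induced values of both lay inside a span narrower than the uninduced values.

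**Figure D4:**
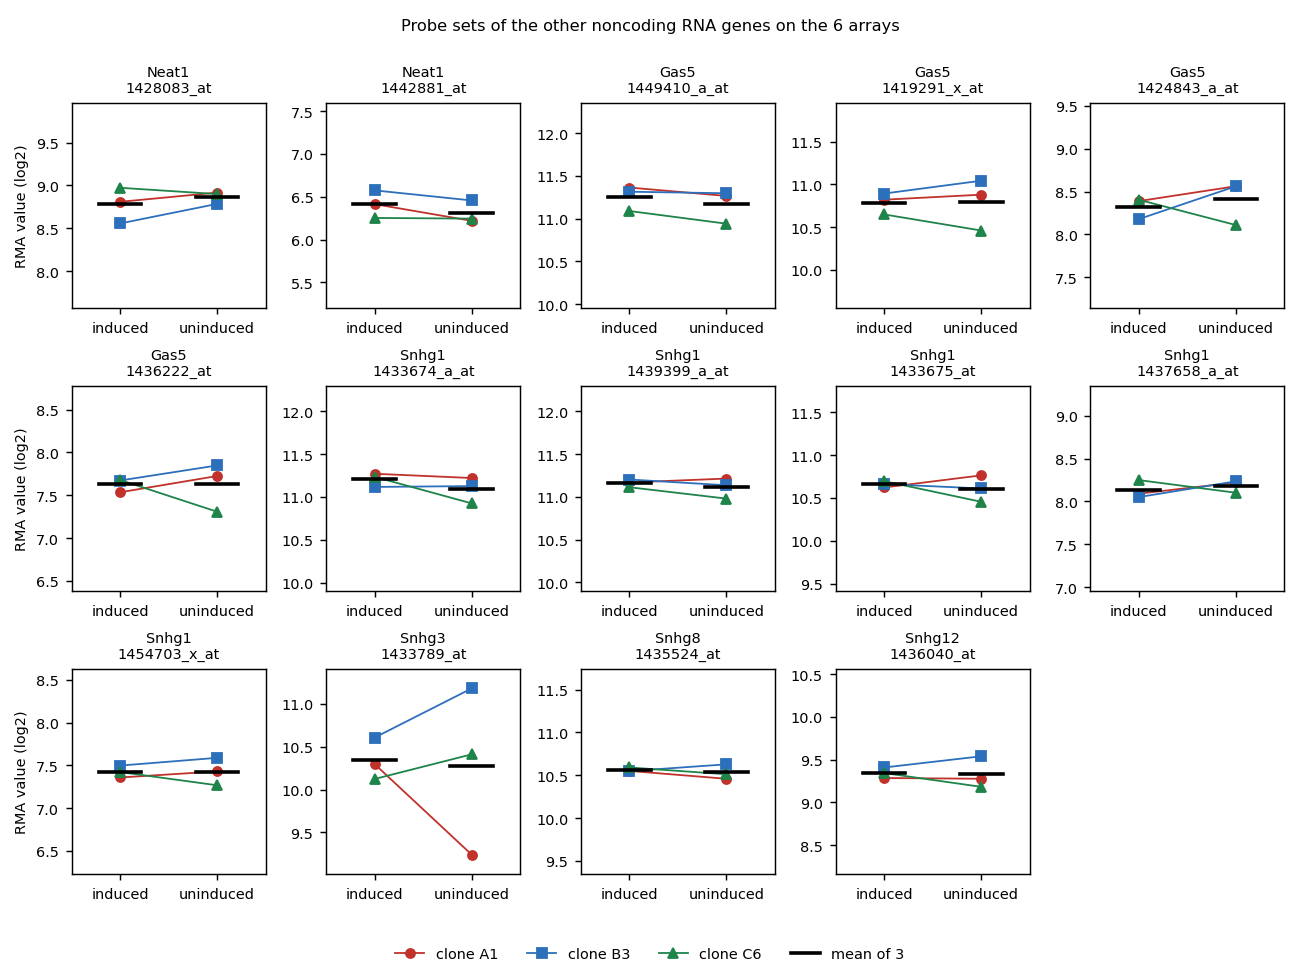
RMA values (log2) of the 14 probe sets of Neat1, Gas5, Snhg1, Snhg3, Snhg8 and Snhg12 on the 6 arrays, induced on the left and uninduced on the right, with lines joining the arrays of a clone and black bars for means of 3. Every panel spans the same log2 distance. Snhg3 is the only steep panel, with uninduced A1 at 9.24 and uninduced B3 at 11.18.

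Other noncoding RNA genes and the proteins that work with these RNAs were read by the brightest probe set of each gene. None of the 10 lists held a gene called by limma (0 with an unadjusted p under 0.05 as well), and their medians lay between -0.02 and 0.05, against 0.00 over all probe sets. These medians, and the numbers of list genes higher or lower, rest on means over all 3 clones, where A1 can offset the others. Within the clones, the list medians ran from -0.04 to 0.18 in A1, from -0.07 to 0.04 in B3 and from -0.23 to 0.08 in C6. The 29 measured of 43 other noncoding RNA genes had a median of 0.05, with 19 higher and 10 lower in induced cells. Those with the smallest p were Snhg18 (0.25 ± 0.13 SE), Tsix (-0.22 ± 0.14), the antisense partner of Xist, Tunar (-0.24 ± 0.15) and Platr22 (0.27 ± 0.28), and all 4 were dim, with means of 4.29 to 5.38. Norad, which sequesters Pumilio proteins, had 0.02, and Tug1 had 0.08, both at means above 10; 1 of the 2 other probe sets of Tug1 had the opposite mean difference. A1 moved against both others in 44.8% of this list, in 45.5% of all genes and in 60.8% of those whose mean reached 6.

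Of 24 measured paraspeckle proteins, 11 were higher and 13 lower in induced cells. Sfpq and Nono, which bind Neat1 RNA as partners, had -0.14 ± 0.13 and -0.09 ± 0.11 (SE), although 3 of the 5 other probe sets of Sfpq and all 3 others of Nono had the opposite mean difference. Dazap1 and Hnrnpul1 had -0.28 ± 0.16 and -0.21 ± 0.21. Rbmx had 0.11 ± 0.12, with the opposite mean difference on all 3 of its other probe sets. Of 29 nuclear speckle proteins, 15 were higher and 14 lower. The splicing factor subunit Sf3a1 had 0.46 (A1), -0.45 (B3) and -0.84 (C6), and Acin1, a partner of the exon junction complex, had 0.35, -0.43 and -0.59. Srrm2, a core scaffold of nuclear speckles, ran the other way with -0.86, 1.06 and 0.91, although 1 of its 2 other probe sets had the opposite mean difference, as did all 3 other probe sets of Sf3a1. These were the 3 genes of that list called in the blocked fit of B3 and C6, where Srrm2 was higher and Sf3a1 and Acin1 were lower in induced cells, against 2.18% of all probe sets. That fit, a setting taken up after its values were seen, called no gene of the other 9 lists. The 2.18% covers probe sets of every brightness, while each list gene was read by its brightest, so the shares are not like for like.

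The proteins of RNase P and tRNase Z, which trim the Malat1 transcript, were 5 higher and 5 lower of 10 measured, with Rpp25 at -0.24 ± 0.23 and Rpp14 at 0.14 ± 0.15 (SE). The 17 measured proteins of snoRNA particles had 8 higher and 9 lower. Among them Dkc1, the pseudouridine synthase of the H/ACA particles, had -0.12 ± 0.12, and Nolc1, a nucleolar chaperone, had -0.11 ± 0.12. Naf1 had 0.12 ± 0.12 and Ruvbl2 had -0.11 ± 0.13. Both other probe sets of Dkc1 had the opposite mean difference. Of 15 measured nonsense-mediated decay factors, 6 were higher and 9 lower. The helicase Upf1 had 0.15 (A1), -0.22 (B3) and -0.46 (C6), and the exonuclease Xrn1 had 0.03, 0.27 and 0.36. The 1 other probe set of Xrn1 had the opposite mean difference. In 73.3% of that list A1 moved against both others, beside 45.5% of all genes and 60.8% of those whose mean reached 6. Of 15 mRNAs with a terminal oligopyrimidine tract, 8 were higher and 7 lower. The elongation factor Eef2 had 0.45, -0.33 and -0.60 in A1, B3 and C6, and the nucleolar protein Npm1 had 0.01, 0.05 and 0.12, with the opposite mean difference on its 1 other probe set.

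The genes around Malat1 and Neat1 were split in the direction they took in the clones. Frmd8, a gene next to them, had 0.48 (A1), -0.38 (B3) and -0.60 (C6). The acetyltransferase gene Kat5 had 0.18, -0.25 and -0.41, and Pcnx3 had 0.19, -0.13 and -0.32, whereas Kcnk7 had -0.02, 0.15 and 0.42. In 12 of the 15 measured genes of this neighbourhood (80.0%) A1 moved against both others, beside 45.5% of all genes and 60.8% of genes whose mean reached 6. Of these 12, A1 was higher and both others lower in 8, and A1 was lower and both others higher, as in the wide Malat1 probe sets, in 4. The median difference of the 15 was 0.18 (A1), -0.02 (B3) and -0.23 (C6). Wdr74, beside Snhg1, had 0.06 in each clone, whereas Slc3a2, on its other side, had 0.14 (A1), -0.14 (B3) and -0.24 (C6). Cenpl, beside Gas5, had -0.04, -0.05 and 0.09.

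**Figure D5:**
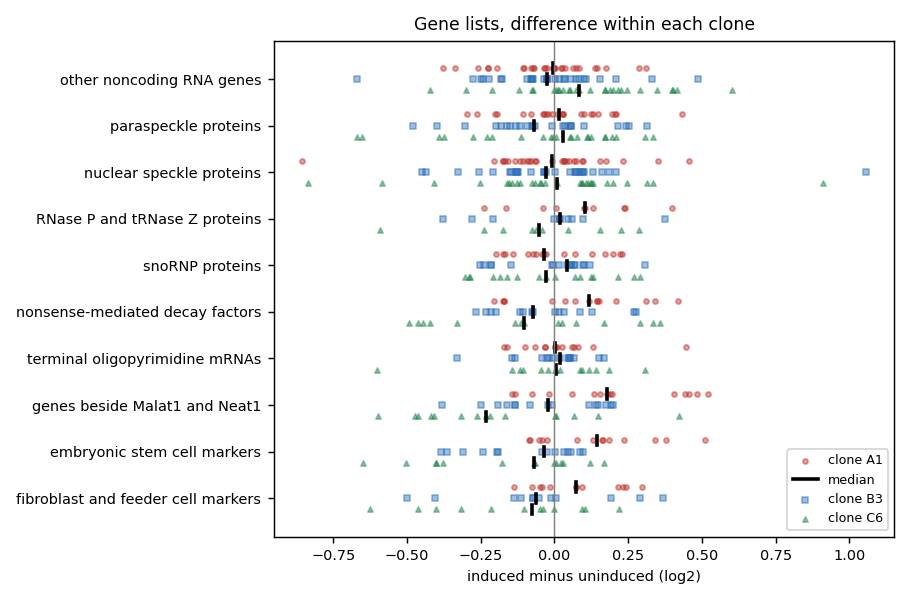
Induced minus uninduced (log2) within each clone for the genes of the 10 lists, 1 point per gene and clone at the brightest probe set, with a black bar at each median. The medians of the list of genes beside Malat1 and Neat1 are 0.18 (A1), -0.02 (B3) and -0.23 (C6), and Srrm2 is the nuclear speckle gene at -0.86 in A1 and 1.06 in B3.

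The genes most like a member were found by Pearson's r over the 6 arrays among 15728 probe sets. With so many candidates and 3 clones, high values arise readily, and they are given as descriptions only. The profile of the brightest Malat1 probe set was nearest to Tcf4 (r = 1.00), Gsta3, Rab23, Ncapd3, Stk26 and Gcc2 (r = 0.99 each), all with C6 highest, and it was most opposed by Abcc5 (-0.996), Nrros and Slc7a3 (-0.99 each). Neat1 was nearest to Mfsd14b, Foxj3, Bclaf1, Ap3m1, Wdr35 and Bcl2l11 (0.98 to 0.99), and farthest from BC029722, Atf7ip and Mavs. Gas5 was nearest to Mtss1, Wdr74, Smim3, Tmed7, Znrf2 and Snrpd3 (0.97 to 0.98) and farthest from Vps37a, Sestd1 and Efnb2. None of these genes was named by 2 members.

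A further pair of profiles was chosen after their values were seen. The widest Malat1 probe set, 1418189_s_at, was nearest to Asxl2, Vps36, Atp6v1d, Snhg10, Degs1 and Srrm2 (0.99 to 1.00). Srrm2 had the largest differences of these 6, each smaller than that of the Malat1 probe set in the same clone, while Asxl2, a Polycomb-associated protein, had -0.20, 0.27 and 0.19 in A1, B3 and C6, and Degs1, the dihydroceramide desaturase, had -0.41, 0.53 and 0.52. The gene most opposed was Capn10, with 0.35, -0.45 and -0.37. Snhg3 was nearest to Rab3a, Ntng1, Ube2h, Rtel1, Mvb12b and BC004004 (0.99 to 1.00), and Rab3a, a GTPase of synaptic vesicles, had 0.35 (A1), -0.22 (B3) and -0.13 (C6).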

How the data were processed

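Total RNA of 6 samples (3 clones, induced and uninduced) was hybridized to 1-colour Affymetrix arrays, 1 array per sample. The deposited log2 values were made by the authors by robust multiarray averaging (RMA). Of the tools, affy and RMA are listed in the submitters' processing notes, with versions not given in the sources used here. The values were used as deposited, without a second normalization. Of 45101 probe sets, 64 controls were left out. Of the 45037 that remained, the platform annotation gave 34945 a single symbol, 932 more than 1 and 9160 none here; only single symbols were used. The annotation names no genome build, so no probe set was placed on the genome.

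Groups and clones were taken from the sample titles. The comparison of induced with uninduced arrays used a two-sided limma test (version 3.58.1, R 4.3.3; lmFit, then eBayes), adjusted by Benjamini-Hochberg over all probe sets, threshold 0.05. It took the place of the methods' t-test, which was run as an alternative. Clone numbers pair the arrays, since both came from the same line; deviations from group means correlated within a clone at 0.19 (A1), 0.53 (B3) and 0.31 (C6). The methods name no pairing, so the block was an alternative. On simulated data for this comparison over 45037 probe sets, limma found 6% of the 50 changes set at 0.5, 62% of those set at 1 and 90% of those set at 2, beside 4 false calls. The simulated noise was independent for each array, without the pairing by clone or the opposite movement of A1 in the real arrays. These shares may therefore not hold for the real data. The number of arrays limits precision: for probe sets whose mean reached 6 the 95% interval ran a median of 0.32 to either side, and p-values measure only the spread between these samples. The members and gene lists were chosen with earlier results of these data known. All member probe sets are named, with up to 4 genes of smallest p per list, and the 6 most and 3 least alike genes for Malat1, Neat1 and Gas5. Srrm2, Nono, Norad, Tug1, Fbln1, Tagln, Thy1, Acta2 and the genes beside host genes were added after their values were seen. Sequences came from RefSeq tables (GRCm38.p6), which held promoter windows of 6 of the 7 genes, all but Neat1.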

Additional observations from a re-analysis of the deposited data

Results flagged for a closer look

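Malat1 met the bound of a clone moving against both others with every clone changing by at least 0.5 in 3 probe sets. The difference in A1 minus the mean of those in B3 and C6 was -3.45 on 1418189_s_at, -2.10 on 1438403_s_at and -1.99 on 1418188_a_at. With 1 pair of arrays per clone the difference between clones was not tested, and Malat1 was selected on it.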

How the results depend on the processing

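With all 3 clones in the fit, the call of 0 among the 21 probe sets held with the replicate block, the methods' t-test, an intensity trend with robust variance, array weights, quantile normalization, centring on the median, 1 probe set per gene, means of at least 4 or 6 and an adjusted p under 0.1. Leaving out an array or a clone gave 0 to 981 calls over all probe sets and 0 to 3 among the members, the highest without A1 and with the block. Leaving out B3 or C6 in place of A1, chosen after seeing the data, gave 0. The block changed no other call. The count of 9 probe sets with A1 against both others was the same with quantile normalization, centring and unlogged differences. Differences near 0 turned sign. With array weights they were 0.081 for Gas5 1419291_x_at, 0.049 for Snhg1 1454703_x_at and -0.0075 for Snhg3. With centring they were -0.012 for Gas5 1436222_at and -0.00081 for Snhg12, and with quantile normalization 0.020 for Snhg1 1454703_x_at. Apart from leaving out arrays, 166 values kept their direction and call and these 6 did not. On leaving out an array or clone, the mean difference ranged from 0.11 to 1.97 for Malat1 1418189_s_at, 0.08 to 1.24 for 1438403_s_at, 0.11 to 1.34 for 1418188_a_at, -0.24 to 0.30 for 1429060_at, -0.042 to 0.35 for 1436202_at, -0.22 to -0.039 for 1427285_s_at and 0.025 to 0.25 for 1452378_at. It ranged from -0.18 to 0.024 for Neat1 1428083_at, from 0.027 to 0.19 for 1442881_at, from -0.45 to 0.52 for Snhg3, from -0.0063 to 0.086 for Snhg8 and from -0.062 to 0.12 for Snhg12. For Gas5 it was -0.025 to 0.17 (1449410_a_at), -0.17 to 0.12 (1419291_x_at), -0.28 to 0.060 (1424843_a_at) and -0.18 to 0.11 (1436222_at). For Snhg1 it was 0.020 to 0.18 (1433674_a_at), -0.014 to 0.10 (1439399_a_at), -0.045 to 0.15 (1433675_at), -0.16 to 0.0084 (1437658_a_at) and -0.083 to 0.078 (1454703_x_at). The causes were not tested. With 3 arrays per group, differences of about 0.5 could seldom have been called.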
